A study of Mus musculus with 12 samples.

Results

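The mouse mitochondrial genome encodes 13 messenger RNAs, 2 ribosomal RNAs and 22 transfer RNAs, and all 37 were taken here as the symbols of the deposited count table that begin with mt-, out of 53819 symbols in all. Of the messengers, 7 code for subunits of complex I, 1 for complex III, 3 for complex IV and 2 for complex V. At least 1 count was found for 27 of the 37, and 19 had enough counts to be tested: 7 messengers, both ribosomal RNAs and 10 transfer RNAs. The data are 12 libraries from E14, a standard mouse embryonic stem cell line, kept in 2-dimensional culture. The groups, with 3 libraries each, were cells given both compounds, proline and budesonide, for 72 h (called both), cells given budesonide alone for 72 h, cells given proline alone for 72 h, and untreated control cells. L-proline is an amino acid known to move mouse embryonic stem cells from a naive towards a primed state, and budesonide is a synthetic glucocorticoid. Doses are not in the labels, and nothing in them says that replicates were separate cultures, so p-values rest on a spread between libraries that may be technical.

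Mitochondrial DNA is transcribed from both strands into long precursors that span many genes. Transfer RNAs lie between most of the messengers and the ribosomal RNAs, and their excision frees the RNAs on either side, so that RNAs of 1 precursor can still differ in level through processing and stability. The messengers code for core subunits of the respiratory chain and of ATP synthase, whose other subunits come from nuclear genes. Most mitochondrial messengers carry a short poly(A) tail, which in several of them completes the stop codon, and a kit that primes on poly(A) can therefore catch them near their 3′ ends.

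The 3′ ends of the messengers set where such a kit would start. The annotated ends of those on which the results turn are printed here, as the last 30 bases of each transcript in GENCODE M21 (build GRCm38, where the submitters' processing notes name GRCm39). The sites of the poly(A) tails were not mapped, so a mature messenger may end elsewhere. Capitals mark the stop codon as annotated, or the single T that follows the last full codon where the tail completes the stop. The last 2 annotated bases of mt-Nd1 are also the first of mt-Ti, on the same strand. mt-Nd2 likewise ends at 4951, past the start of mt-Tw at 4950. Whether the mature mt-Nd1 and mt-Nd2 messengers carry the full stop codon cannot be seen here.
mt-Nd4: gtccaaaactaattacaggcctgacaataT
mt-Cytb: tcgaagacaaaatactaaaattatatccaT
mt-Nd1: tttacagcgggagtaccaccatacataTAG
mt-Nd2: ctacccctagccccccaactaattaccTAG
mt-Co1: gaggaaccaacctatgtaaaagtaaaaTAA
The ends stand on the plus strand of the mitochondrial genome, at 11515 to 11544 for mt-Nd4, 15259 to 15288 for mt-Cytb, 3678 to 3707 for mt-Nd1, 4922 to 4951 for mt-Nd2 and 6843 to 6872 for mt-Co1. All 5 of these messengers were counted in every library.

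mt-Nd5 and mt-Nd6 were counted in every library too, and the other 6 messengers lie in a near-silent stretch of the table. From mt-Ts1 to mt-Nd4l (bases 6870 to 10173 of the mitochondrial genome) lie 11 of the members, with 6 messengers among them, and they held 79 counts in 12 libraries, 0.00123% of all mitochondrial counts. The other 26 members held 6430394 counts. In sum over the libraries mt-Co2 had 3 counts, mt-Atp6 had 13, mt-Co3 had 28 and mt-Nd3 had 35, while mt-Atp8, mt-Nd4l and 8 transfer RNAs had none. A count of 0 among the 91.2 M counts of the 12 libraries allows up to 0.0329 CPM (counts per 1 M counts), as counting error only. None of these messengers could be compared between groups. mt-Co2 and mt-Co3 code for core subunits of cytochrome c oxidase, and mt-Atp6 and mt-Atp8 for membrane subunits of ATP synthase.

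The same stretch has a near-identical nuclear copy. GENCODE M21 lists 7 unprocessed pseudogenes side by side on chromosome 1, minus strand, between 24611535 and 24616197, each matching a mitochondrial messenger. Gm28661 equals mt-Co2 at 681 of 681 aligned bases, Gm10925 equals mt-Atp6 at 678 of 678, Gm28437 equals mt-Co3 at 783 of 783, Gm10222 equals mt-Nd4l at 294 of 294, and Gm28438 equals mt-Nd3 at 344 of 345. The pair of mt-Co2 (mitochondrial bases 7664 to 7693) and its copy is shown over the last 30 aligned bases, in lower case throughout because no base differs.
mt-Co2: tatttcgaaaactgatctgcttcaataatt
Gm28661: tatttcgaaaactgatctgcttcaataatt
The match to mt-Nd4, Gm28439, covers its first 876 bases and stops well before its 3′ end, and mt-Nd4 had 1479692 counts. The last 100 annotated bases of mt-Co1 are also identical to its copy Gm29216 throughout, and yet mt-Co1 had 124206 counts, against 61 for the copy. Of the 7 copies, 5 held more counts in sum than the messengers they match: Gm28437 had 2314, Gm28438 had 4609, Gm10222 had 24, Gm10925 had 19 and Gm28661 had 14. By library Gm28437 had 240, 255 and 0 counts with both, 555, 452 and 356 with budesonide, 16, 162 and 4 with proline, and 21, 0 and 253 in control. How reads that match several places were counted is not given in the sources used here, only annotated transcripts were compared, and the part of such reads in the low counts was not tested.

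**Figure D1:**
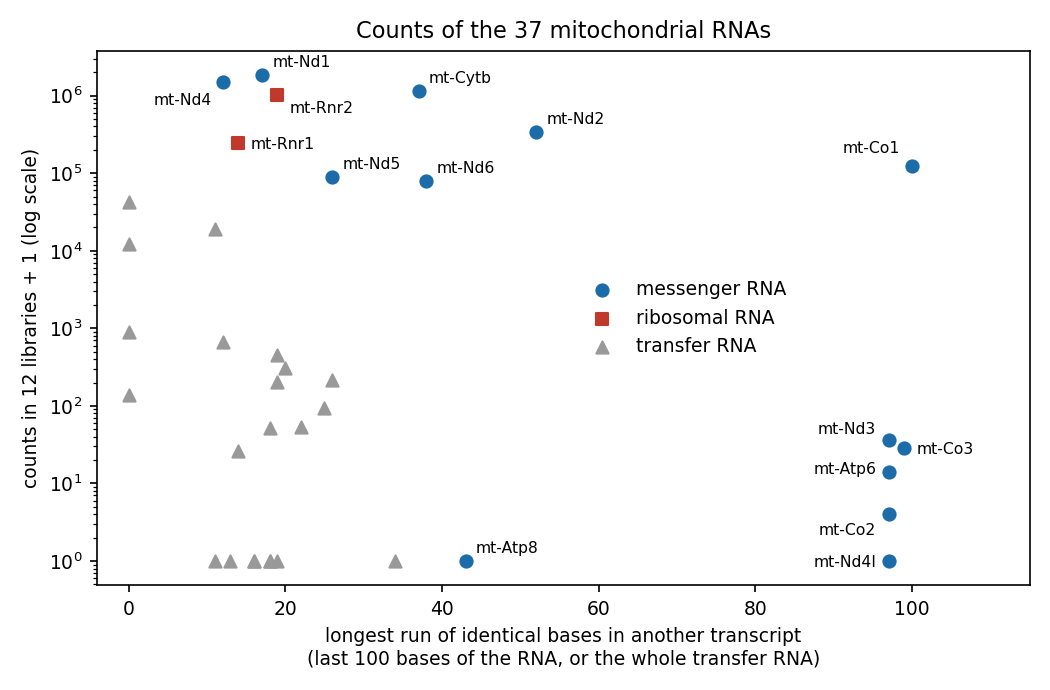
Counts summed over 12 libraries (log scale, 1 added) of the 37 mitochondrial RNAs against the longest run of identical bases that another annotated transcript shares with the last 100 bases of the messenger or ribosomal RNA, or with the whole transfer RNA. The 5 messengers mt-Nd3, mt-Co3, mt-Atp6, mt-Co2 and mt-Nd4l lie at runs of 97 to 99 bases with at most 35 counts, while mt-Co1 lies at 100 bases with 124206 counts and mt-Atp8 at 43 bases with none.

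Libraries held 5.30 to 15.9 M counts. The libraries budesonide 3 and control 3 stood apart by their tested genes at 0, at 8.43% and 6.57%, while the others had 1.39% to 5.77%. Markers of embryonic stem cells (8 of 8 tested) summed to 2664 to 2836 CPM with both, 2511 to 2646 with budesonide, 2596 to 3048 with proline and 2634 to 3488 in control. Single members of this sum moved in opposite directions. Esrrb averaged 118 CPM with proline and 376 in control, Nanog 111 and 217, Zfp42 55.2 and 141, Sox2 458 and 526, and Dppa5a 398 and 494. Utf1 averaged 675 CPM with proline and 533 in control, Tdgf1 965 and 833, and Pou5f1 30.3 and 29.8. Markers of feeder fibroblasts (4 of 8 tested, Postn and Lum at 0 in every library) summed to 3.95 to 7.33 CPM with both, 5.44 to 7.31 with budesonide, 18.3 to 21.5 with proline and 9.06 to 17.8 in control. Markers of extraembryonic endoderm (7 of 8 tested) summed to 18.1 to 25.2 CPM with both, 5.44 to 20.1 with budesonide, 25.7 to 29.8 with proline and 9.36 to 13.9 in control. Both low marker sums were highest with proline, where most mitochondrial messengers were lowest. Their members did not all move together. Thy1 averaged 11.9 CPM with proline and 8.12 in control, Dcn 5.69 and 1.03, and Pdgfra 1.54 and 0.549, but Col1a1 0.293 and 2.72. Dab2 averaged 13.0 CPM with proline and 3.59 in control, Gata6 4.31 and 2.66, and Gata4 3.04 and 0.600. Amn averaged 2.45 and 0.494 and Sox17 2.30 and 0.0513, but Foxa2 0.818 and 1.70 and Sox7 0.502 and 1.47. The part of either sum in the results below was not tested. The nuclear ribosomal RNA Rn18s took 2.21% to 6.70% of the counts of a library.

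Mitochondrial RNA as a whole took a smaller share of all counts with proline than in any other group. The share was 8.03%, 7.90% and 7.92% with both, 7.74%, 7.42% and 7.98% with budesonide, 5.55%, 5.51% and 5.79% with proline, and 7.77%, 7.66% and 7.31% in control. Every proline library lay below every library of the other groups. Proline minus control was −1.96 percentage points and both minus proline was 2.33 points, each with p = 0.1 by exact permutation (two-sided), which is the lowest p that 3 libraries against 3 can reach. Both minus control was 0.367 points with no overlap (exact permutation p = 0.1), whereas budesonide minus control was 0.134 points with overlapping libraries (exact permutation p = 0.6) and −0.137 points without control 3 and budesonide 3. Both minus budesonide was 0.233 points (exact permutation p = 0.3). In bulk samples, fewer cells of a type and less RNA per cell cannot be told apart.

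Of the 3 classes of RNA, messengers and transfer RNAs had a smaller share in every proline library than in any other library, and ribosomal RNAs did not. Messengers took 6.35% ± 0.137 of all counts with both, 6.31% ± 0.383 with budesonide, 4.20% ± 0.0339 with proline and 6.0% ± 0.0896 in control (SD, n = 3 each). Ribosomal RNAs took 1.48% ± 0.185 with both, 1.28% ± 0.107 with budesonide, 1.37% ± 0.132 with proline and 1.52% ± 0.336 in control, and these libraries overlapped in all 5 comparisons of 2 groups. Transfer RNAs took 0.114% ± 0.0139 with both, 0.118% ± 0.0116 with budesonide, 0.0482% ± 0.00379 with proline and 0.0637% ± 0.00900 in control. Proline minus control was −0.0155 points for transfer RNAs, with no overlap (exact permutation p = 0.1). The members of this class did not fall together. mt-Te held 41983 of the 76215 transfer RNA counts and was the 1 of 10 tested that was called lower with proline against control. The median log2 change of the 10 was 0.19. The transfer RNA share was higher with budesonide than in control by 0.0547 points with no overlap (exact permutation p = 0.1), where the whole mitochondrial share overlapped.

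**Figure D2:**
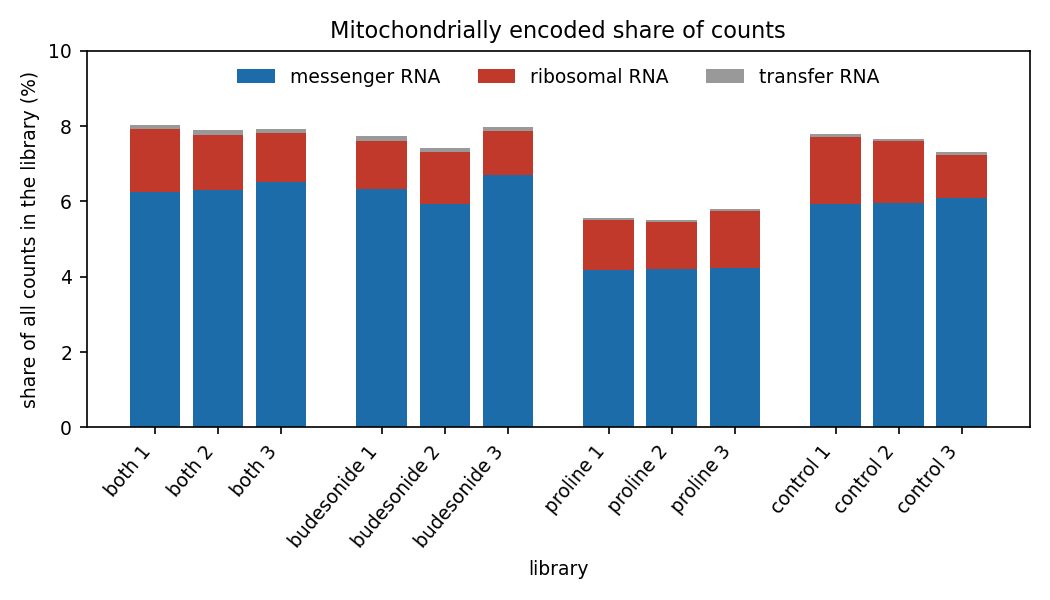
Share of all counts of a library (%, vertical axis) held by mitochondrial messenger, ribosomal and transfer RNA, stacked, in each of the 12 libraries. The proline libraries reach 5.51% to 5.79% and all other libraries 7.31% to 8.03%.

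Gene by gene, the mitochondrial RNAs were tested in 1 fit over all 13852 tested genes (edgeR quasi-likelihood test, called at an adjusted p below 0.05). With proline alone, 7 of the 19 tested members fell against control, none rose and 12 were not called, at a background of 7.88% of all tested genes called (3.17% higher and 4.71% lower). With budesonide alone, 4 rose, 3 fell and 12 were not called against control, at a background of 6.51% (2.51% higher and 4% lower). Without composition scaling of the libraries the same comparison had 7 higher and 2 lower calls. With both against proline, 9 rose, none fell and 10 were not called, at a background of 10.1% (5.83% higher and 4.27% lower). With both against control, 6 rose, 2 fell and 11 were not called, at a background of 7.17% (3.34% higher and 3.83% lower). With both against budesonide none of the 19 was called by edgeR or by DESeq2, at a background of 1.47% (0.874% higher and 0.592% lower), and 2 had an unadjusted p under 0.05. These counts describe 19 members that share a genome, precursors and the same libraries, and comparisons that share the proline or control libraries are not separate evidence.

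Some counts moved with single libraries. Without control 2, the calls for budesonide against control came to 4. The calls for both against control came to 5 without control 1 or without control 2 and to 4 without both 3. Without control 3 and budesonide 3 together, the calls were 7 for proline against control, 7 for budesonide against control, 9 for both against proline, 9 for both against control and 1 for both against budesonide.

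Among the complex I messengers, mt-Nd1 and mt-Nd4 were lower with proline than in control, and higher with both than with proline alone. Neither gene kept its call in these comparisons under the length and GC offsets described below. mt-Nd1, whose protein helps to form the quinone site of complex I, had 23681, 23094 and 23541 CPM with both, 22056, 21359 and 26261 with budesonide, 15586, 15415 and 15427 with proline, and 19892, 20627 and 21237 in control. All proline libraries lay below all others. The log2 change was −0.41 ± 0.07 for proline against control (SE; edgeR adjusted p = 0.000581), 0.60 ± 0.07 for both against proline (adjusted p = 6.68e-06) and 0.17 ± 0.07 for budesonide against control (adjusted p = 0.168, not called).

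mt-Nd4, a proton-pumping subunit, had 17110, 17655 and 18291 CPM with both, 17192, 15515 and 16891 with budesonide, 13191, 11114 and 13133 with proline, and 17699, 20024 and 22586 in control. The proline libraries were lowest and did not overlap with any other group. Proline against control gave −0.69 ± 0.09 (edgeR adjusted p = 8.03e-06), the strongest fall among the messengers, and both against proline gave 0.50 ± 0.09 (adjusted p = 0.000343). Budesonide against control gave −0.28 ± 0.09 (adjusted p = 0.0461), a call that was lost under 11 of 15 alternatives. These were the removal of control 2, of control 3, of any 1 budesonide library or of control 3 and budesonide 3 together, RLE scaling, library totals alone, the compared groups alone, the replicate term and the length and GC offsets. Over all 15, values of mt-Nd4 lay between −0.36 and −0.19, and the adjusted p reached 0.242.

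mt-Nd2 went another way. Its protein is a second proton-pumping subunit, and it had 4067, 3857 and 3381 CPM with both, 2872, 2996 and 3275 with budesonide, 3412, 3594 and 3498 with proline, and 5579, 4812 and 4467 in control. Every treated library lay below every control library, and the budesonide libraries were lowest. The log2 change was −0.70 ± 0.09 for budesonide against control (edgeR adjusted p = 6.26e-05), −0.50 ± 0.09 for proline against control (adjusted p = 0.00101) and −0.39 ± 0.09 for both against control (adjusted p = 0.00924). The last call was lost without control 1, where mt-Nd2 gave −0.30 (adjusted p = 0.0736), and without both 3, where it gave −0.32 (adjusted p = 0.0584). It was also lost under the length and GC offsets described below. Both against proline gave 0.11 ± 0.09 (adjusted p = 0.560), so mt-Nd2 was the 1 messenger tested that was not called in that comparison.

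mt-Nd5 and mt-Nd6 overlap by 14 bases on opposite strands, and since the strand setting is not given, reads there cannot be told apart. mt-Nd5, the outermost pumping subunit, had 1138, 1170 and 1121 CPM with both, 1068, 942 and 1092 with budesonide, 802, 751 and 807 with proline, and 966, 955 and 1040 in control. It rose by 0.54 ± 0.09 with both against proline (edgeR adjusted p = 0.000419) and fell by 0.33 with proline against control (adjusted p = 0.0296), a call that was lost when any 1 of those 6 libraries was left out (adjusted p 0.0649 to 0.116) and, with no filter, came to an adjusted p of 0.0803 for mt-Nd5. mt-Nd6, the 1 messenger read from the other strand, had 1089, 1237 and 1163 CPM with both, 933, 463 and 1293 with budesonide, 569, 739 and 461 with proline, and 1190, 977 and 570 in control. Its control and budesonide libraries were widely spread. It rose by 0.98 ± 0.25 with both against proline (adjusted p = 0.0131, or 0.0717 at a change of 0.83 without proline 3, and 0.0593 with DESeq2). Proline against control gave −0.63 ± 0.25 for mt-Nd6 (adjusted p = 0.146), and −0.88 (adjusted p = 0.0195) without control 3.

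The complex III messenger mt-Cytb codes for cytochrome b, the haem-bearing core of that complex. It had 14374, 15296 and 16086 CPM with both, 15053, 12715 and 15856 with budesonide, 8693, 9583 and 8263 with proline, and 12879, 12292 and 12199 in control. The proline libraries lay below all others. It fell with proline against control by 0.49 ± 0.08 on the log2 scale (edgeR adjusted p = 0.000341) and rose with both against proline by 0.79 ± 0.08 (adjusted p = 9.59e-07). Both against control gave 0.29 ± 0.08 for mt-Cytb (adjusted p = 0.0304), with adjusted p of 0.0779 to 0.107 when control 2, control 3, both 2 or both 3 was left out. With a replicate term mt-Cytb was not called in that comparison either. Budesonide against control gave 0.22 ± 0.08 (adjusted p = 0.112, not called) and 0.30 (adjusted p = 0.0243) without budesonide 2.

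The 1 complex IV messenger tested, mt-Co1, codes for the catalytic subunit of cytochrome c oxidase. It had 1723, 1795 and 1658 CPM with both, 1400, 1386 and 1711 with budesonide, 1139, 985 and 1178 with proline, and 1152, 1255 and 1210 in control. The libraries with both lay above all proline and all control libraries, while proline and control overlapped. mt-Co1 rose by 0.65 ± 0.10 with both against proline (edgeR adjusted p = 0.000132) and by 0.52 ± 0.10 with both against control (adjusted p = 0.00193). Proline against control gave −0.13 ± 0.10 (adjusted p = 0.542) and budesonide against control 0.31 ± 0.10 (adjusted p = 0.0608), neither called.

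**Figure D3:**
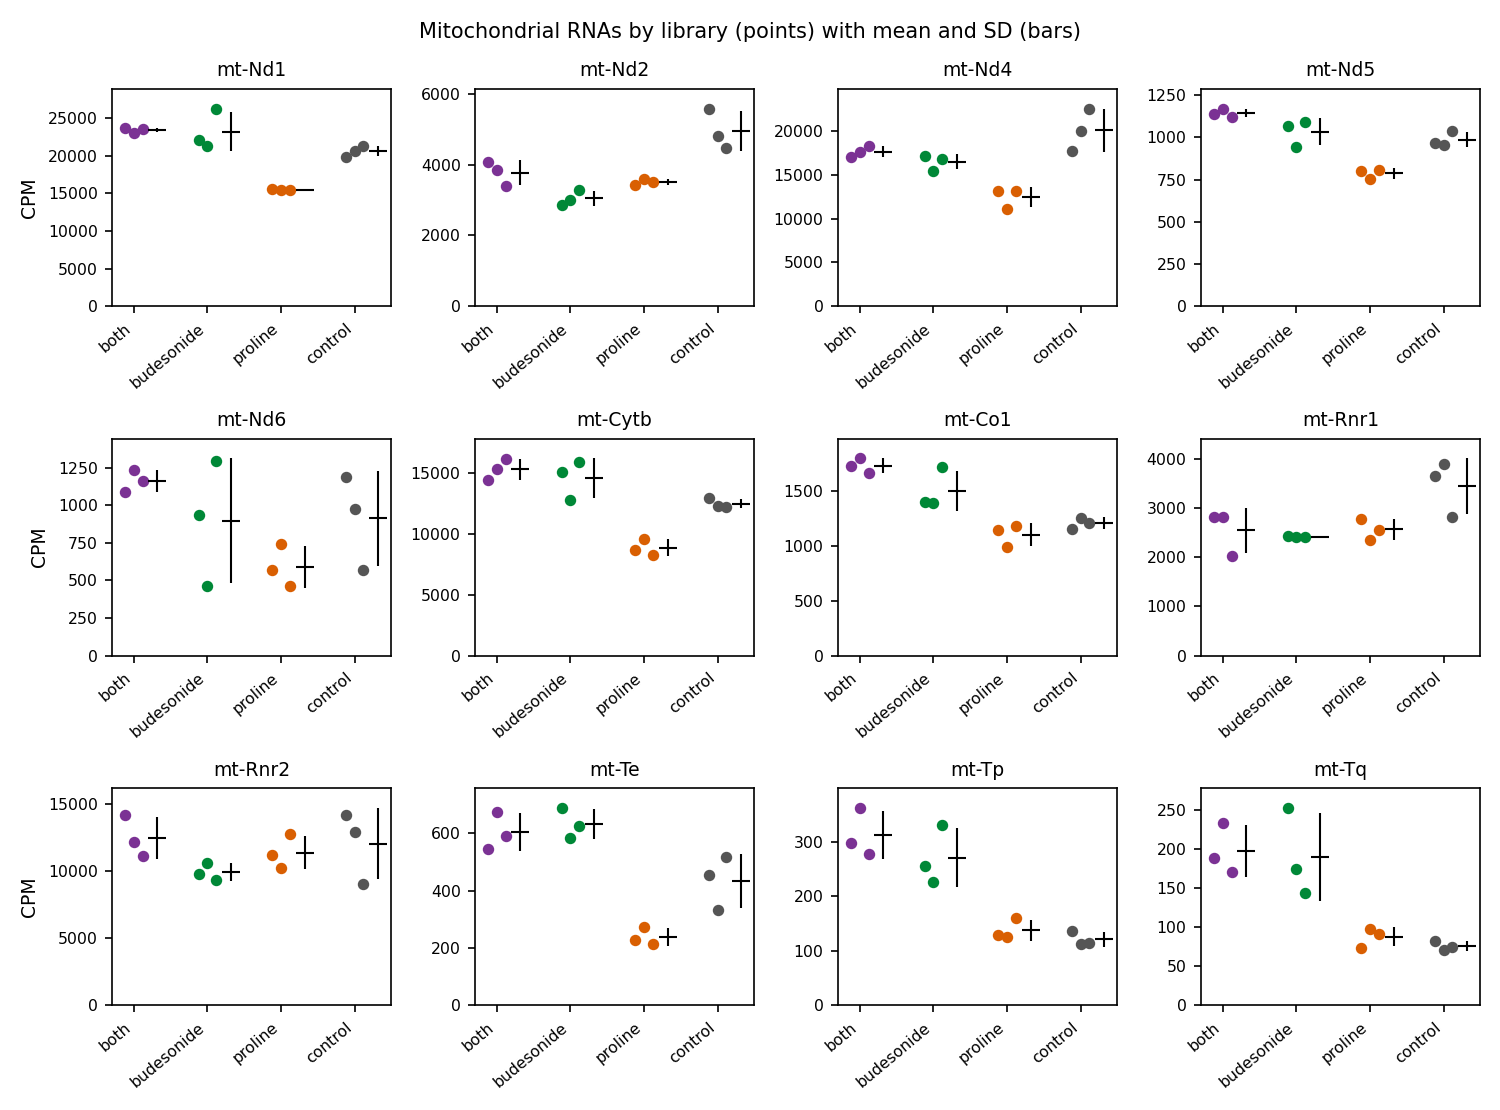
CPM (vertical axis, scale starts at 0) of 12 mitochondrial RNAs in each library (points), with the mean and SD of the 3 libraries of a group (bars). mt-Nd1, mt-Nd4, mt-Nd5 and mt-Cytb are lowest with proline, mt-Nd2 is highest in control, and mt-Tp and mt-Tq are highest in the 2 groups given budesonide.

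The ribosomal RNAs lie at the head of the heavy-strand precursor. Neither was called with both against proline, where 6 of the 7 tested messengers rose. mt-Rnr1, the RNA of the small mitochondrial ribosomal subunit, had 2806, 2809 and 2019 CPM with both, 2435, 2413 and 2405 with budesonide, 2782, 2351 and 2558 with proline, and 3642, 3882 and 2806 in control. It fell by 0.51 ± 0.12 with budesonide against control (edgeR adjusted p = 0.0106), by 0.42 ± 0.12 with proline against control (adjusted p = 0.0282) and by 0.44 ± 0.12 with both against control (adjusted p = 0.0268), where both 1 and both 2 lay at the level of control 3. Both against proline gave −0.01 ± 0.12 (adjusted p = 0.974). The proline call of mt-Rnr1 was lost without control 1, control 2, proline 2 or proline 3 (adjusted p 0.0833 to 0.182). The budesonide call was lost without control 2 (adjusted p = 0.0765). The call for both against control was lost without control 1, control 2 or both 3 (adjusted p 0.0883 to 0.157) and with the compared groups alone (0.0772). The proline call and the call for both were also lost under the length and GC offsets described below.

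mt-Rnr2, the RNA of the large subunit, had 14157, 12120 and 11093 CPM with both, 9733, 10609 and 9307 with budesonide, 11151, 10220 and 12703 with proline, and 14151, 12893 and 9029 in control. It was called in none of the 5 comparisons of 2 groups, and control 3 was the lowest of all 12 libraries. Without control 3 the change with budesonide against control was −0.45 (edgeR adjusted p = 0.00616), against −0.28 ± 0.12 (adjusted p = 0.183) with that library. A spread of this size in control limits what can be said of mt-Rnr2.

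Among the transfer RNAs, 3 of 22 held 95.9% of the counts: mt-Te for glutamate, mt-Tp for proline and mt-Tq for glutamine. All 3 are read from the minus strand, as are 9 of the 37 members. mt-Te lies directly beside mt-Nd6 and 5 bases before the start of mt-Cytb. By position, mt-Tp lies 67 bases past the end of mt-Cytb, and mt-Tq lies 64 bases past the end of mt-Nd1. Mature transfer RNAs have no poly(A) tail, the strand setting is not given, and reads of a transfer RNA and of a precursor or antisense RNA over it cannot be told apart here.

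mt-Tp and mt-Tq were higher wherever budesonide was present. mt-Tp had 298, 362 and 278 CPM with both, 256, 225 and 330 with budesonide, 128, 124 and 159 with proline, and 136, 112 and 113 in control. mt-Tq had 188, 234 and 170 CPM with both, 253, 174 and 144 with budesonide, 73.7, 97.4 and 91.6 with proline, and 82.8, 70.4 and 74.5 in control. For both transfer RNAs, every library given budesonide lay above every library not given it.

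The rises with budesonide against control were 1.17 ± 0.15 for mt-Tp (edgeR adjusted p = 5.09e-05) and 1.33 ± 0.18 for mt-Tq (adjusted p = 7.98e-05). With both against proline they were 1.19 ± 0.15 for mt-Tp (adjusted p = 1.21e-05) and 1.18 ± 0.18 for mt-Tq (adjusted p = 0.000105). The 2 transfer RNAs gave 0.18 ± 0.15 and 0.20 ± 0.18 with proline against control, neither called. Under the length and GC offsets described below, both were called higher with proline against control, mt-Tp at 0.86 and mt-Tq at 1.19. The rise of mt-Tq with both against proline was then 0.57. Under the alternatives run, the change with budesonide against control stayed between 0.96 and 1.27 for mt-Tp and between 1.07 and 1.50 for mt-Tq, called under each of them.

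mt-Te followed the messengers with proline and mt-Tp with budesonide. It had 546, 676 and 591 CPM with both, 690, 584 and 626 with budesonide, 226, 274 and 214 with proline, and 454, 333 and 519 in control. The proline libraries lay below and the libraries given budesonide above all control libraries. mt-Te fell by 0.87 ± 0.14 with proline against control (edgeR adjusted p = 0.000221) and rose by 1.34 ± 0.14 with both against proline (adjusted p = 9.59e-07), by 0.54 ± 0.14 with budesonide against control (adjusted p = 0.0193) and by 0.47 ± 0.14 with both against control (adjusted p = 0.0389). The budesonide call of mt-Te was lost without budesonide 1 or control 2 (adjusted p 0.0775 and 0.120) and with the compared groups alone (0.0588). The call for both against control was lost when any 1 of those libraries except control 3 was left out (adjusted p 0.0501 to 0.216). It was also lost with the compared groups alone and with a replicate term. Under the length and GC offsets described below, mt-Te turned to 0.20 with proline against control. Its calls with budesonide against control and with both against proline were lost there.

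mt-Tm, the transfer RNA for methionine, lies between mt-Tq and mt-Nd2 on the strand of most messengers. It had 13.1, 15.8 and 11.2 CPM with both, 16.1, 10.1 and 16.6 with budesonide, 7.79, 5.18 and 8.48 with proline, and 3.44, 4.63 and 2.16 in control. These rest on only 14 to 143 counts in a library. The control libraries were lowest and overlapped with none of the others. It rose by 2.07 ± 0.42 with budesonide against control (edgeR adjusted p = 0.00366) and by 1.98 ± 0.42 with both against control (adjusted p = 0.00459). The other 6 transfer RNAs tested (mt-Ta, mt-Tc, mt-Ti, mt-Tl1, mt-Tn and mt-Tv) had at most 131 counts in a library, and none was called in any comparison.

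**Figure D4:**
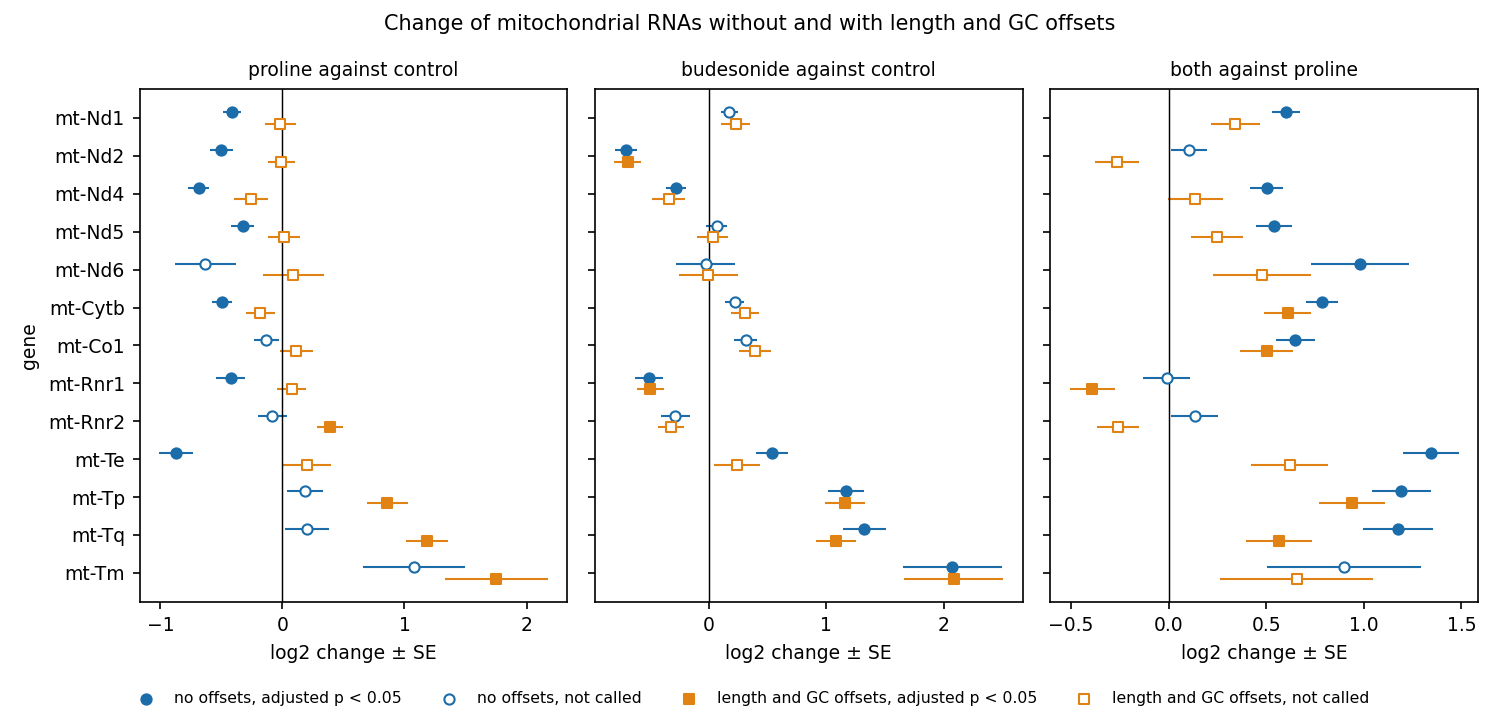
Log2 change with SE (horizontal axis) of 13 mitochondrial RNAs in 3 comparisons, without offsets (circles) and with offsets for transcript length and GC content (squares), filled where called. With proline against control the messengers move towards 0 under the offsets, mt-Cytb giving −0.49 without and −0.18 with them. The rises of mt-Tp and mt-Tq with budesonide against control change little, while with proline against control both are called only under the offsets.

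The falls with proline depended on 1 processing choice. The 9 messengers and ribosomal RNAs tested have 34.1% to 39.9% GC, where the median tested gene has 49.4%, and they are shorter than most tested genes, with only 3.18% to 21.6% of these shorter. With offsets for a trend of counts over length and GC in each library, none of the 7 members called with proline kept its call: mt-Nd4 gave −0.26, mt-Cytb −0.18, mt-Nd1 −0.02 and mt-Nd2 −0.01. Under the same offsets 4 members were called higher, namely mt-Rnr2 at 0.39, mt-Tp at 0.86, mt-Tq at 1.19 and mt-Tm at 1.75. With both against proline, mt-Cytb (0.61), mt-Co1 (0.50), mt-Tp (0.94) and mt-Tq (0.57) were called higher and mt-Rnr1 (−0.39) lower under the offsets. With both against control 6 members were then called higher and none lower, so the falls of mt-Nd2 and mt-Rnr1 lost their calls. With budesonide against control 3 were called higher and 2 lower. The members lie at the low end of GC and length among the tested genes, and whether the offsets remove a technical trend or a biological change was not tested.

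The proline effect differed with and without budesonide for 3 messengers. The interaction is the change of both against budesonide minus the change of proline against control, and 3 of the 19 members were called higher and none lower, at a background of 0.469% (0.411% higher and 0.0578% lower). It was 0.81 ± 0.13 for mt-Nd2 (edgeR adjusted p = 0.00235), 0.79 ± 0.12 for mt-Nd4 (adjusted p = 0.00129) and 0.56 ± 0.12 for mt-Cytb (adjusted p = 0.0214). The proline effect with budesonide present was 0.31 ± 0.09 for mt-Nd2, 0.10 ± 0.08 for mt-Nd4 and 0.07 ± 0.08 for mt-Cytb, against −0.50, −0.69 and −0.49 without it. mt-Nd1 at 0.42 ± 0.10 (adjusted p = 0.0653) and mt-Te at 0.80 ± 0.20 (adjusted p = 0.0692) were not called. Without 1 library at a time, mt-Cytb lost its call for control 1, control 2, proline 1, proline 3 or both 3 (adjusted p 0.0527 to 0.0738) and with library totals alone (0.0630), and under the length and GC offsets none of the 3 was called (adjusted p 0.441 to 0.690).

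Ratios between mitochondrial RNAs within a library do not depend on library scaling. The ones given here were chosen after their values were seen and carry no test. mt-Nd1 over mt-Nd2 was 5.82, 5.99 and 6.96 with both, 7.68, 7.13 and 8.02 with budesonide, 4.57, 4.29 and 4.41 with proline, and 3.57, 4.29 and 4.75 in control. The groups given budesonide lay above both other groups, while proline and control overlapped. mt-Cytb over mt-Nd2 showed the same order, with means of 4.09 ± 0.621 with both, 4.78 ± 0.501 with budesonide, 2.53 ± 0.153 with proline and 2.53 ± 0.212 in control (SD, n = 3 each).

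mt-Tp lies downstream of mt-Cytb on the opposite strand, with mt-Tt between them. mt-Cytb over mt-Tp had means of 49.5 ± 7.92 with both, 54.5 ± 5.60 with budesonide, 65.8 ± 12.6 with proline and 104 ± 7.99 in control (SD, n = 3 each). Here every treated library lay below every control library, proline included. mt-Rnr2 over mt-Rnr1 was 4.95 ± 0.595 with both, 4.09 ± 0.275 with budesonide, 4.44 ± 0.486 with proline and 3.47 ± 0.359 in control. By share of the mitochondrial counts, mt-Nd2 made up 4.69% ± 0.388 with both, 4.11% ± 0.218 with budesonide, 6.13% ± 0.327 with proline and 6.40% ± 0.676 in control. The share of mt-Nd4 was 22.0% ± 0.982 with both, 22.3% ± 0.962 with budesonide, 21.8% ± 1.47 with proline and 26.0% ± 3.54 in control.

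**Figure D5:**
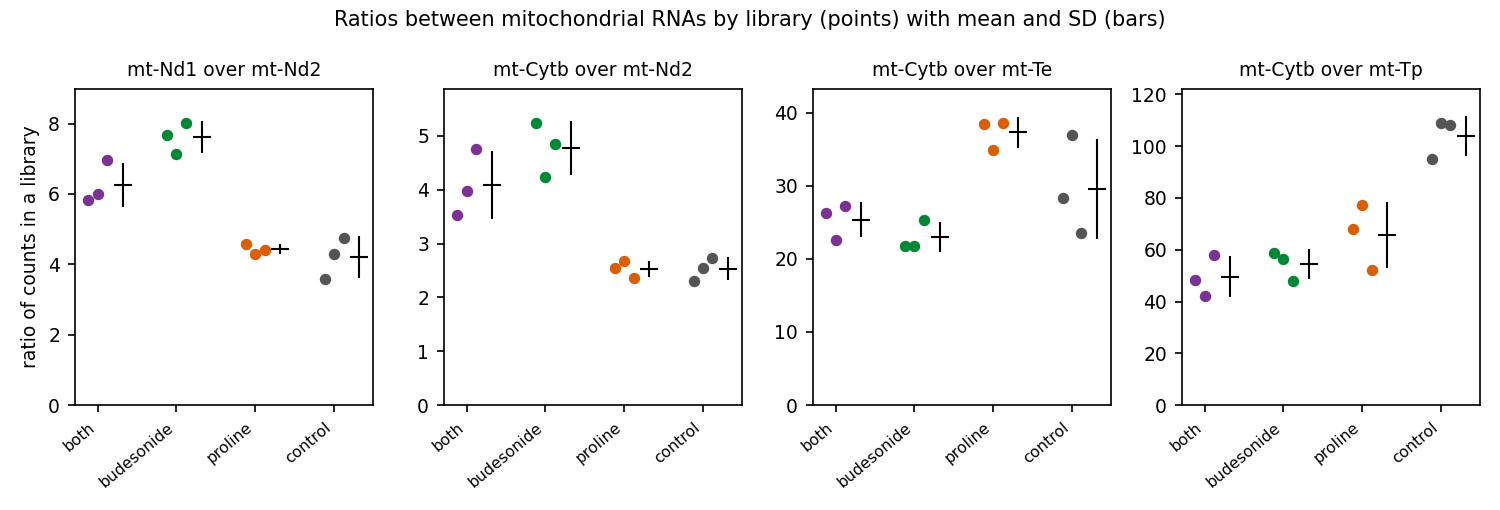
Ratio of counts of 2 mitochondrial RNAs within a library (vertical axis, points) with the mean and SD of a group (bars). mt-Nd1 over mt-Nd2 and mt-Cytb over mt-Nd2 are higher in the groups given budesonide (means 4.09 to 7.61) than in proline and control (2.53 to 4.42), and mt-Cytb over mt-Tp is highest in control (104).

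Nuclear genes whose products make and keep mitochondrial RNA were read from 5 lists (transcription, RNA processing and stability, DNA maintenance, translation factors and regulators of biogenesis), with 91 symbols in the table and 85 tested. Of the 85, 1 rose and 2 fell with proline against control (3.53% called), 1 rose and 3 fell with budesonide against control (4.71%), 1 rose and 4 fell with both against proline (5.88%), and 1 rose and 2 fell with both against control (3.53%). Each share lies below the background of its comparison, so these lists as a whole were not called more often than other genes. None was called with both against budesonide or in the interaction, by edgeR. Their median log2 changes lay between −0.09 and 0.05, near the medians of all tested genes of −0.01 to 0.03.

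Some single genes were called. Lrpprc, a stabiliser of mitochondrial messengers, averaged 169 ± 20.8 CPM with both, 164 ± 25.8 with budesonide, 244 ± 23.1 with proline and 264 ± 40.5 in control (SD, n = 3 each). It fell by 0.69 ± 0.14 with budesonide against control (edgeR adjusted p = 0.00411) and by 0.53 ± 0.14 with both against proline (adjusted p = 0.0182). Rexo2, an exonuclease that clears short RNAs in mitochondria, averaged 164 ± 19.2 CPM with both, 134 ± 9.77 with budesonide, 270 ± 39.8 with proline and 196 ± 15.3 in control. Rexo2 rose by 0.46 ± 0.13 with proline against control (adjusted p = 0.0312) and fell by 0.55 ± 0.13 with budesonide against control (adjusted p = 0.0134). Slc25a36, a carrier of pyrimidine nucleotides into mitochondria, averaged 215 ± 17.2 CPM with both, 242 ± 20.8 with budesonide, 69.9 ± 8.87 with proline and 114 ± 6.03 in control. It fell by 0.70 ± 0.13 with proline against control (adjusted p = 0.00112) and rose by 1.62 ± 0.13 with both against proline (adjusted p = 2.08e-08).

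Other called members were Sucla2, a subunit of succinate-CoA ligase, at −0.67 ± 0.18 with proline against control (edgeR adjusted p = 0.0219), and Mrrf, the mitochondrial ribosome recycling factor, at −1.34 ± 0.33 with budesonide against control (adjusted p = 0.0157). Suclg1 (−0.51 ± 0.12) and the transcription factor Yy1 (−0.45 ± 0.12) were called lower with both against proline, and the initiation factor Mtif2 (−1.14 ± 0.27) with both against control. The core machinery was not called in any comparison, and Slirp, the partner of Lrpprc, had at most 2 counts in a library and was not tested. For proline against control and budesonide against control, the mitochondrial RNA polymerase Polrmt gave −0.37 ± 0.18 and −0.31 ± 0.18, the DNA-packaging transcription factor Tfam gave 0.14 ± 0.18 and −0.38 ± 0.18, and the mitochondrial poly(A) polymerase Mtpap gave −0.41 ± 0.26 and −0.38 ± 0.26. The helicase Twnk gave 0.23 ± 0.26 and −0.10 ± 0.26 in these comparisons, and the DNA polymerase Polg gave 0.56 ± 0.21 and 0.57 ± 0.21 (adjusted p = 0.114 and 0.112).

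The nuclear subunits of complexes I, III, IV and V, whose proteins assemble with those of the mitochondrial messengers, numbered 71 tested. With budesonide against control 17 of them fell and none rose (23.9% called, at a background of 6.51%), among them the complex I subunit Ndufa5 at −0.76 ± 0.14 and the ATP synthase subunit Atp5h at −1.02 ± 0.15 (edgeR adjusted p = 0.00161 and 0.000197), where the 7 tested mitochondrial messengers had 2 called lower. Counts of these subunits under the alternatives are not given here. For budesonide against control, library totals alone turned the calls over all tested genes from 348 higher and 554 lower to 513 and 349. With proline against control 2 subunits rose and 1 fell (4.23% called, under the background of 7.88%), where 5 of the 7 mitochondrial messengers fell. With both against proline 4 rose and 5 fell (12.7% called, at a background of 10.1%), among them Ndufb8 at 0.42 ± 0.13, and with both against control 1 rose and 9 fell (14.1% called, at a background of 7.17%). With both against budesonide 1 rose and none fell (1.41% called, at a background of 1.47%), and in the interaction none was called.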

How the data were processed

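Polyadenylated RNA was counted in 12 libraries made with a 3′ end kit that yields 1 fragment per transcript, per the labels' protocols. Tools in the submitters' processing notes are STAR 2.7.5c, featureCounts 2.0, cutadapt 2.5, bcl2fastq and DESeq2, with the build GRCm39. Not given in the sources used here are the annotation, the strand setting and how reads with several matches were treated. The authors deposited whole-number counts per gene symbol, and these were used, while a deposited normalised table was not used here.

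The tests ran on these counts in edgeR 4.0.16 (R 4.3.3): filterByExpr (minimum count 10, minimum total 15) kept 13852 genes, libraries were scaled by TMM, and a two-sided quasi-likelihood F test used 1 fit of the 12 libraries with a coefficient for each group, which leaves 8 residual degrees of freedom. Benjamini-Hochberg adjustment of p-values ran over all tested genes, and genes were called below 0.05. CPM are counts over the TMM-scaled total, and the SE is the log2 change over the root of F. Shares of counts were compared by exact permutation tests. Library totals of 5.30 to 15.9 M set the counting precision, and with no molecular identifiers named, limits cover counting error only. Replicates differed by a chi-square of at least 5.63 per degree of freedom, so none was a repeat deposit of another. On simulated counts for proline against control (13212 genes), the test recovered 71% of genes changed by 1 and 99% of those changed by 2 on the log2 scale, with 12 false calls.

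Members are all symbols beginning mt-. The named nuclear genes are the called list members with the largest change, at most 3 per list and comparison, plus Polrmt, Tfam, Twnk, Polg, Lrpprc, Slirp and Mtpap. The members and lists were chosen with earlier results of these data known. Alternatives were DESeq2 1.42.0, RLE scaling, library totals alone, scaling without mitochondrial RNA and Rn18s, no filter, the compared groups alone, a replicate term, length and GC offsets (splines with 4 degrees of freedom in each library, GENCODE M21, 97.7% of tested genes), and leaving out libraries. Coordinates and sequences are from GENCODE M21 (GRCm38).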

Additional observations from a re-analysis of the deposited data

Results flagged for a closer look

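For 3 mitochondrial messengers the proline effect differed between cells with and without budesonide, by the test of the difference itself (the interaction term in edgeR's quasi-likelihood fit). The difference on the log2 scale, the effect with budesonide minus the effect without it, was 0.81 for mt-Nd2, 0.79 for mt-Nd4 and 0.56 for mt-Cytb. Of these 3, mt-Nd2 was lowest with budesonide alone, and mt-Nd4 and mt-Cytb were lowest with proline alone. mt-Cytb lost its call under 8 of 20 alternatives, and under the length and GC offsets none of the 3 was called.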

How the results depend on the processing

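Of 1800 changes of single members recomputed under an alternative, 1614 kept their direction and their side of the threshold, 83 turned sign without a call in either fit, 69 lost a call, 30 gained one, and 4 turned sign with a call in 1 of the fits. These 4 were with proline against control under the length and GC offsets: mt-Nd5 to 0.013, mt-Rnr1 to 0.076, mt-Rnr2 to 0.39 and mt-Te to 0.20. Under these offsets the members called came to 4 for proline against control, 5 for both against proline, 1 for both against budesonide and 0 for the interaction, and the cause was not tested. With no filter they came to 1 for both against budesonide and 5 for the interaction, and with DESeq2 to 6 for the interaction. Without control 3 and budesonide 3 they came to 1 for both against budesonide and 5 for the interaction. Leaving out 1 library at a time, the calls ranged from 5 to 7 for proline against control, from 4 to 7 for budesonide against control, from 8 to 9 for both against proline, from 4 to 7 for both against control and from 2 to 4 for the interaction.

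Of the nuclear genes for mitochondrial expression, 8 were called for both against proline with DESeq2 and with the compared groups alone, and 9 without control 3 and budesonide 3. DESeq2 called 7 for both against control, and 1 was called for both against budesonide without control 3 and budesonide 3. Leaving out 1 library, the calls ranged from 1 to 3 for proline against control, from 3 to 6 for both against proline, from 2 to 5 for both against control and from 0 to 1 for both against budesonide. Over all tested genes, calls when 1 library was left out ranged from 674 to 887 for proline against control (1091 with all), from 836 to 1095 for both against proline (1399), from 535 to 789 for both against control (993), from 80 to 171 for both against budesonide (203) and from 44 to 89 for the interaction (65). Budesonide against control had 902 calls, 493 with the compared groups alone and 575 without control 3 and budesonide 3. Both against budesonide had 435 with DESeq2, 354 with no filter, 120 with the compared groups alone and 118 under the offsets, and the interaction had 162, 134 and, under the offsets, 32. Scaling by library totals alone moved the median of all genes for budesonide against control to 0.10, with 513 higher and 349 lower calls, against 348 and 554, and gave 65 higher and 114 lower calls for both against budesonide, against 121 and 82.

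The share of mitochondrial counts for budesonide against control was −0.137 percentage points without control 3 and budesonide 3, against 0.134 with them. For both against proline it was 2.54 points with Rn18s left out and 2.15 with messengers alone. The difference of the proline effects was 1.83 points with messengers alone and 2.47 without those libraries, against 2.20. Adding the counts of the 7 nuclear copies, an alternative chosen after seeing the data, gave −1.96 points for proline against control. Among messengers alone, the share of mt-Nd1 changed by 2.54 points for proline against control and by 0.350 for both against proline, and that of mt-Nd4 by −1.60 for both against proline.

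Replicate numbers showed no sign of pairing. The deviations of same-numbered libraries correlated between −0.036 and 0.053, and those of differently numbered libraries between −0.075 and 0.082. Whether same-numbered libraries were handled together cannot be seen from these values. With a replicate block the members called came to 7 for proline against control, 6 for budesonide against control, 9 for both against proline, 6 for both against control, 0 for both against budesonide and 2 for the interaction, and all tested genes called for both against budesonide came to 128. The 18 untested members had at most 28 counts in a library, too few to compare groups.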
